A study of Mus musculus with 6 samples.

Results

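The genes described here code for the proteins of the mitochondrial ribosome. They were taken as every entry of the count table whose symbol starts with Mrpl or Mrps followed by a digit, which gave 76 genes of the 17523 entries: 47 with the large subunit symbol Mrpl and 29 with the small subunit symbol Mrps. RNA was sequenced from FACS-sorted bone marrow cells of C57BL/6 mice, in 3 NHD13 and 3 wild-type (WT) libraries. NHD13 mice carry the NUP98-HOXD13 fusion, which joins a nucleoporin gene to a homeobox gene, and are studied as mice that develop myelodysplastic syndrome, in which blood cells form inefficiently. The study set NHD13 cells against WT cells. The sources used here do not give the promoter that drives the fusion, the age and sex of the mice, or the sort markers. Nothing in the labels says that replicates came from separate animals, so p-values measure only the spread between these libraries, part of which may be technical. Levels of Xist and of Y-linked genes, given further on, differed within each group, so its libraries were not all repeats of the same sample.

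Mitochondria keep a small genome of their own, and its messenger RNAs are read inside the organelle by a dedicated ribosome. The ribosomal RNAs of that particle come from mitochondrial DNA, while all of its proteins are encoded in the nucleus, made in the cytosol and imported. The proteins it makes are core subunits of the respiratory chain complexes and of ATP synthase. Some mitochondrial ribosomal proteins belong to families shared with bacterial ribosomes, and others are found only in mitochondria. Blood stem cells are known to rely little on respiration while quiescent and more on it as they differentiate.

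Several features of the libraries bear on every comparison. Total counts ran from 13517547 to 14388772 in NHD13 and from 12541538 to 14308040 in WT. The fusion had its own entry in the table, with 185, 179 and 167 counts in NHD13 replicates 1, 2 and 3 and 0 in each WT library, so the labels held. NHD13 replicate 1 stood apart from its group: on the second principal component (12.3% of the variance) it scored 28.2, against -9.44 and -14.1 for NHD13 replicates 2 and 3. The ribosomal RNA entry Rn45s took 2.36% of its counts, against 0.170% and 0.209% in the other NHD13 libraries and at most 0.182% in WT. The cells were labelled as haematopoietic stem cells. Neutrophil markers nevertheless summed to 36161 to 38967 CPM (counts scaled to library size by TMM) in NHD13 and 47347 to 61955 CPM in WT, while 10 stem cell markers summed to 247 to 268 CPM in NHD13 and 292 to 320 CPM in WT. Sums of the erythroid markers were 1827, 3248 and 3085 CPM in NHD13 and 1478, 1537 and 1686 CPM in WT. These sums cover 7 of the 11 erythroid markers listed, as Hba-a1, Hba-a2, Hbb-bt and Hbb-bs had no entry under those symbols. Of the 7, 4 rose in NHD13 and none fell, where 15.0% of all genes tested were called higher and 15.3% lower. Neutrophil markers fell in 7 of 12 cases and dendritic cell markers in 6 of 8, and none rose in either list. Monocyte and macrophage markers fell (5 of 6 tested, with sums of 758 to 1159 CPM in NHD13 and 1597 to 1808 CPM in WT), as did all 7 mast cell and basophil markers (49.0 to 74.2 CPM in NHD13 and 266 to 592 CPM in WT). Stem cell markers were split: of 7 tested, 1 rose and 3 fell, with log2 changes, NHD13 over WT, from -2.46 to 2.73. Of 7 megakaryocyte and platelet markers, 1 rose and 1 fell. No marker with an entry was at 0 in all libraries. The part of cell composition in the results that follow was not tested. In bulk RNA, fewer cells of a type and less RNA per cell cannot be told apart.

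Mitochondrial ribosomal protein genes were mostly higher in NHD13 cells, by small amounts. All 76 passed the filter on low counts, and the counts behind each value ran from 107 (Mrps6) to 1978 (Mrpl12) per library. By edgeR's quasi-likelihood test with Benjamini-Hochberg adjustment over all 12013 genes tested, 27 of the 76 (35.5%) rose in NHD13, 1 fell and 48 did not pass an adjusted p of 0.05. Over all genes tested, 15.0% were called higher and 15.3% lower. The fitted log2 change, NHD13 over WT, was positive for 69 members and negative for 7. Its median was 0.20, with quartiles of 0.12 and 0.33 and a range of -0.31 to 0.81, while the median of all genes tested was 0.00 with quartiles of -0.25 and 0.20. In 41 members every NHD13 library lay above every WT library, and in 2 members every NHD13 library lay below. Over all genes tested, 23.5% were separated upward in this way and 22.6% downward.

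**Figure D1:**
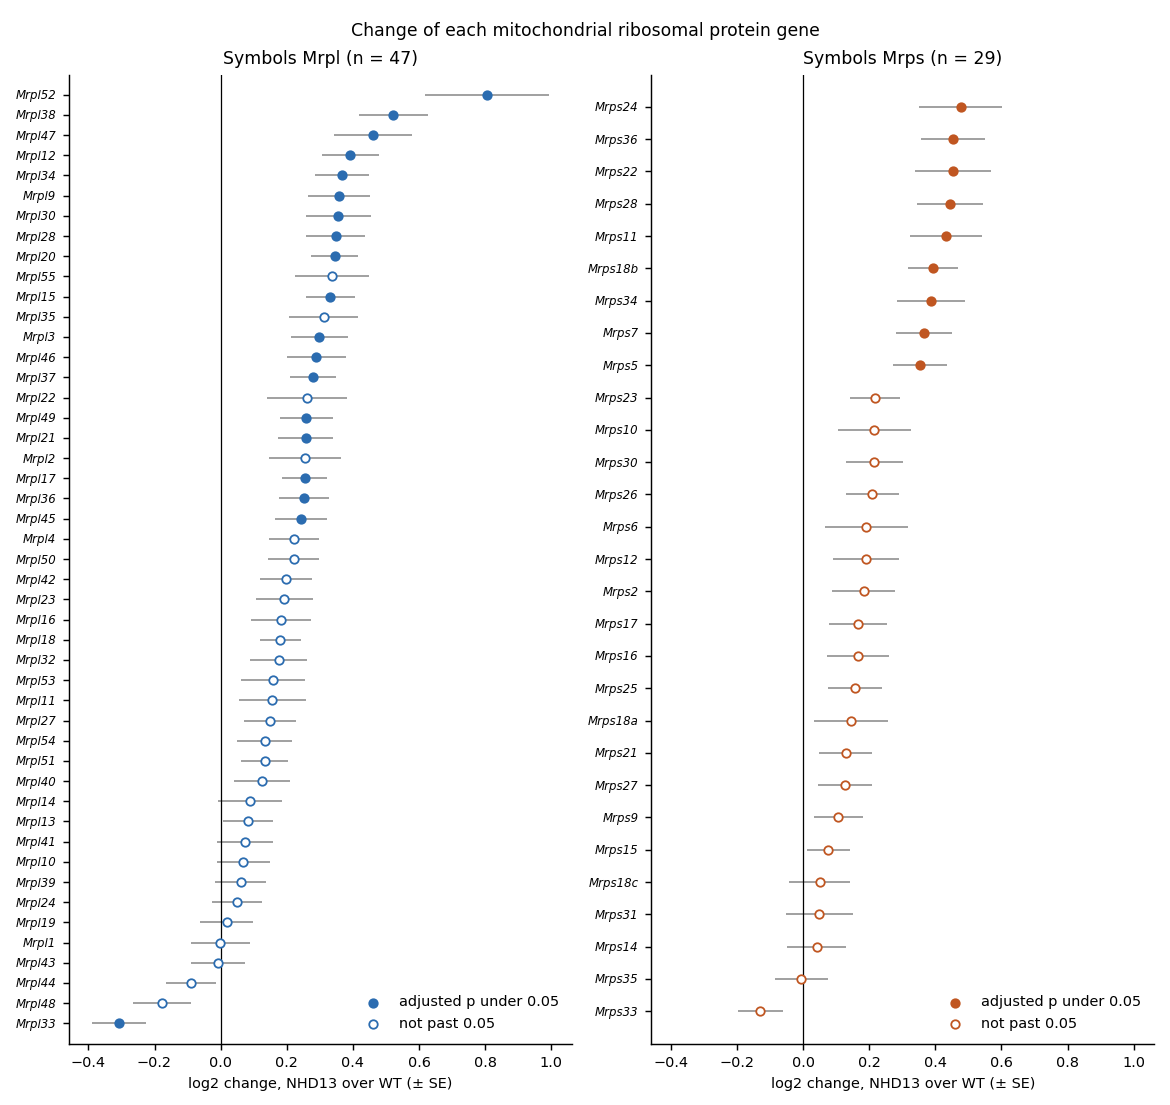
Fitted log2 change of each gene, NHD13 over WT, with its standard error as a horizontal bar; large subunit symbols stand on the left and small subunit symbols on the right, and filled points passed an adjusted p of 0.05. Nearly all points lie to the right of 0, with Mrpl52 at 0.81 the farthest right and Mrpl33 at -0.31 the farthest left.

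The plot of fitted changes shows a continuous spread rather than a separate block of strongly changed genes. Below Mrpl52, the next member was Mrpl38 at 0.52, and the remaining members called higher lay between 0.24 (Mrpl45) and 0.48 (Mrps24). Across the 76 genes the log2 change had a Spearman correlation of -0.057 with mean CPM and of -0.118 with transcript length, given as a description across genes that share the same libraries.

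The rise was smaller in NHD13 replicate 1 than in the other NHD13 libraries. Relative to the WT mean, the median member stood at 0.13, 0.26 and 0.25 on the log2 scale in NHD13 replicates 1, 2 and 3, and at 0.02, -0.05 and 0.02 in WT replicates 1, 2 and 3. Members above every WT library numbered 49, 64 and 61 of 76 in NHD13 replicates 1, 2 and 3. The matching share over all genes tested was not counted, so these numbers only describe the libraries. NHD13 replicate 1 was the lowest of the NHD13 libraries for 59 members, and for 26 of the 27 called higher. The same order held for 1509 of the 1799 genes called higher in the whole table. The erythroid sum and the cycling cell sum (5263, 6005 and 5796 CPM in NHD13 replicates 1, 2 and 3, against 5189, 5001 and 5144 CPM in WT) were also lowest among the NHD13 libraries in replicate 1, and their part in the result was not tested. Without NHD13 replicate 1, 44 members were higher and 1 lower, where 24.5% of all genes tested were called higher and 24.2% lower. Without replicate 1 of both groups, 47 were higher and 1 lower, where 26.6% of all genes were called higher and 26.7% lower.

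**Figure D2:**
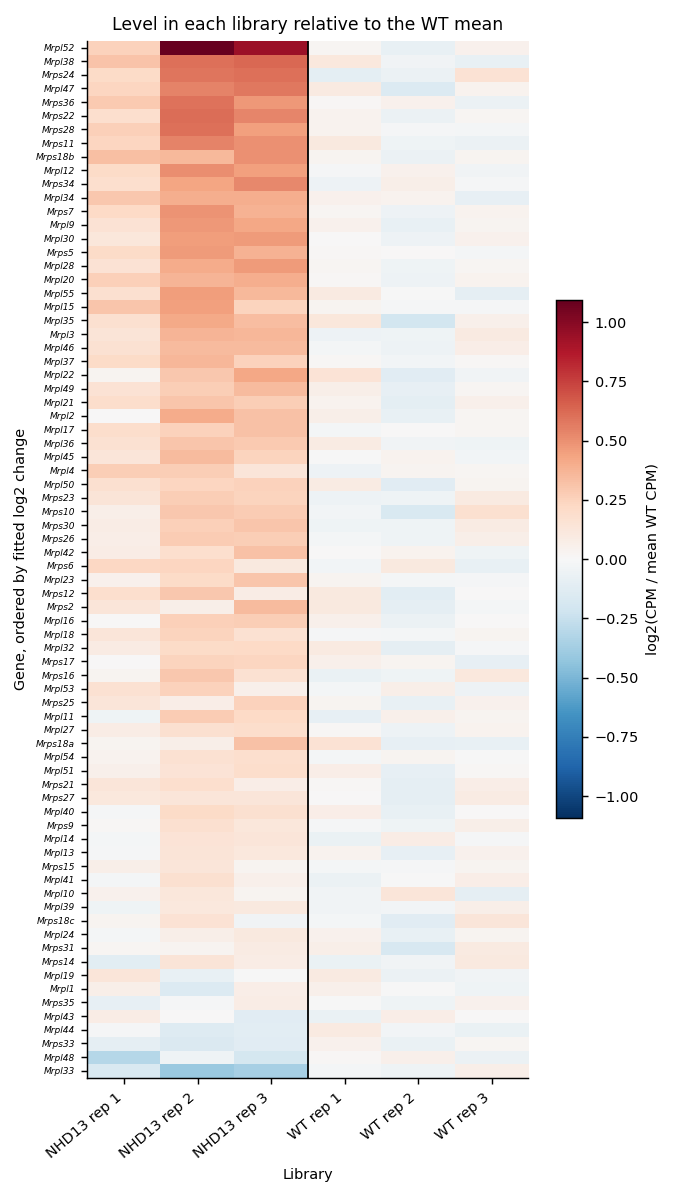
Level of each gene in each library as the log2 ratio of its CPM to the mean WT CPM, with NHD13 libraries left of the line and WT libraries right of it, ordered from the largest to the smallest fitted change. NHD13 replicates 2 and 3 are red for most genes (median 0.26 and 0.25), NHD13 replicate 1 is paler (median 0.13), and the lowest row, Mrpl33, is blue in all 3 NHD13 libraries.

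In the map of levels by library, NHD13 replicate 2 held the highest value of 40 members and NHD13 replicate 3 that of 28, against 2 for each other library. WT replicate 2 held the lowest value of 38 members. The calls depended on these libraries. Without NHD13 replicate 2, 4 members were called higher and 0 lower, where 6.23% of all genes were called higher and 8.76% lower. Without NHD13 replicate 3, 8 were called higher and 0 lower (6.86% and 9.05% of all genes). Without WT replicate 1, 16 were called higher and 0 lower (9.88% and 13.2% of all genes). Fewer members were called without WT replicate 2, 6 higher and 0 lower (6.8% and 7.86% of all genes), and without WT replicate 3, 4 higher and 0 lower (6.64% and 8.06% of all genes). In the fits without NHD13 replicate 2 or WT replicate 3, the share of the 76 members called higher was below that of all genes. In the fit without WT replicate 2 it was close to that share. Mrpl20, Mrpl38 and Mrps18b stayed past the threshold whichever library was left out.

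Both subunits were higher by a similar share of their level. Large subunit genes summed to 2255, 2507 and 2473 CPM in NHD13, against 2133, 2053 and 2106 CPM in WT. The means were 2412 ± 137 CPM in NHD13 and 2097 ± 40.8 CPM in WT (SD, n = 3 each), 15.0% higher in NHD13. Small subunit genes summed to 1137.5, 1272 and 1260 CPM in NHD13, against 1066, 1023 and 1091 CPM in WT, 15.4% higher in NHD13. For both subunits, every NHD13 library lay above every WT library. The ratio of the large to the small subunit sum was 1.98, 1.97 and 1.96 in NHD13 and 2.001, 2.006 and 1.93 in WT, so that the groups overlapped. Its log2 difference between the groups was -0.0046, smaller than the pooled SD of 0.023 between replicates. All 76 genes together took 0.335%, 0.378% and 0.376% of the counts in NHD13 replicates 1, 2 and 3 and 0.323%, 0.305% and 0.321% in WT.

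**Figure D3:**
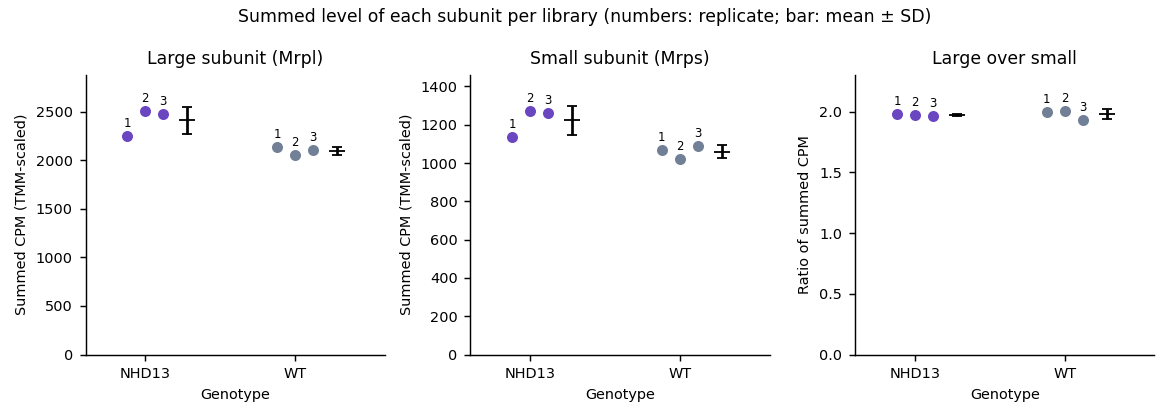
Summed CPM of the large subunit genes (left) and the small subunit genes (middle), and the ratio of the 2 sums (right), in each library; numbers mark the replicate and black bars the mean ± SD of 3 libraries. Both sums are higher in NHD13 (15.0% and 15.4%), while the ratio lies between 1.93 and 2.01 in all 6 libraries.

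By gene, 18 of the 47 large subunit genes rose (38.3%, with a median log2 change of 0.22 over the 47) and 1 fell, and 9 of the 29 small subunit genes rose (31.0%, median 0.19) and none fell. Symbols do not always match the place of the protein: the products of Mrps30 and Mrps18a sit in the large subunit, and that of Mrps36 is now assigned to the 2-oxoglutarate dehydrogenase complex. With these moved, 18 of 49 large subunit genes and 8 of 26 small subunit genes rose, with medians of 0.21 and 0.19. Members of families shared with bacteria had 17 of 46 genes higher and 1 lower (median 0.20), and mitochondria-specific proteins 9 of 29 higher and none lower (median 0.16). This split counted Mrps18a and Mrps18b, which are relatives of bacterial S18, as mitochondria-specific, and Mrps18b is among the 9 higher.

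Among large subunit proteins, Mrpl52 changed most. Mrpl52, a mitochondria-specific protein (chromosome 14, bases 54426909 to 54429756 on the plus strand of GRCm38), had 32.6, 58.3 and 52.2 CPM in NHD13 replicates 1, 2 and 3 and 27.8, 25.9 and 28.3 CPM in WT. The groups did not overlap, but NHD13 replicate 1 lay close to the WT libraries, and the NHD13 spread (47.7 ± 13.4 CPM, against 27.3 ± 1.26 CPM in WT; SD, n = 3 each) was the widest relative to its mean among the members named here. The fitted fold was 1.75 (log2 0.81, SE 0.19, edgeR adjusted p = 0.0143). The adjusted p was 0.0507 without NHD13 replicate 2, 0.0692 without WT replicate 2 and 0.0560 without WT replicate 3. Mrpl38, another mitochondria-specific protein (chromosome 11, bases 116131817 to 116138868, minus strand), had 38.2, 46.7 and 47.5 CPM in NHD13 and 33.3, 29.9 and 29.1 CPM in WT. Its groups were clearly apart, with a fold of 1.44 (log2 0.52, SE 0.10, edgeR adjusted p = 0.00804). Mrpl47, of the family that lies beside the exit of the peptide tunnel in bacteria, had 24.9, 30.9 and 31.6 CPM in NHD13 and 22.7, 19.1 and 21.7 CPM in WT, without overlap (log2 0.46, SE 0.12, adjusted p = 0.0204). Its exons share 1068 bases, summed over the overlapping neighbours Actl6a and Ndufb5 on the other strand and not split between them. Without a stated strand setting, reads from the shared bases cannot be told apart.

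The stretches just before the starts of Mrpl52 and of Mrps22, a small subunit protein described further on, are shown because they hold the ETS motif CCGGAAG, the core bound by GABP (also called NRF2) that is known to act on many nuclear genes for mitochondrial proteins. The sequences run 5′ to 3′ on the strand of the gene, from RefSeq on GRCm38.p6, and capitals mark this motif on either strand and, in Mrpl52, the letters AAGATGG, the core of the motif of YY1, another factor of such genes.
Mrpl52, chr14:54426659-54426908, plus strand: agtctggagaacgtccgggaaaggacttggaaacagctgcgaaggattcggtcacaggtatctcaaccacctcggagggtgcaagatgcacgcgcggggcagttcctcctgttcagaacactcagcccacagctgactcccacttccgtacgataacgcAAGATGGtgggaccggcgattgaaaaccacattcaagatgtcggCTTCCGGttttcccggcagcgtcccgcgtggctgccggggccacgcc
Mrps22, chr9:98601680-98601929, minus strand: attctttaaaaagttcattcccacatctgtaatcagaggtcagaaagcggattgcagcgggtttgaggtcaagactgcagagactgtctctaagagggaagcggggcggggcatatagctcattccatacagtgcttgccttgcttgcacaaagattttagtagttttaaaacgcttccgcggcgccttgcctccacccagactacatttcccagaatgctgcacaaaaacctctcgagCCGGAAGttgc
Both stretches are 250 bases long and hold 1 copy of CCGGAAG each, Mrpl52 with 59.6% and Mrps22 with 48.8% of bases G or C.

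Promoter sequences were at hand for 67 of the 76 members. Searched on both strands over the 250 bases before the start, CCGGAAG was found in 17 of them (25.4%), in 6.91% of all 32851 promoters and in 16.2% of the tested genes with a promoter. Of the 17 members with the motif, 5 rose (median log2 change 0.17), and of the 50 without it, 18 rose (median 0.21). The letters GCGCATG, from the motif of NRF1 (nuclear respiratory factor 1), were found for 8 members (11.9%, against 3.24% of all promoters and 6.87% of tested genes), of which 3 rose. Of the 59 without GCGCATG, 20 rose. AAGATGG was found for 6 members (8.96%, against 4.49% of all promoters and 5.33% of tested genes), of which 4 rose. Of the 61 without AAGATGG, 19 rose. The box CCAAT was found for 25 members (37.3%, against 33.8% of all promoters and 41.0% of tested genes) and TATAAA for 5 (7.46%, against 12.4% and 7.48%). With CCAAT, 5 of 25 rose (median 0.18), and without it 18 of 42 (median 0.23). With TATAAA, 2 of 5 rose, and without it 21 of 62. None of these motifs contains another. A match is a description of the letters in the window, and binding was not measured.

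The stalk of the large subunit, which recruits translation factors, was uneven. Mrpl12, whose product forms the mobile stalk, had 112, 138 and 132 CPM in NHD13 and 96.4, 99.9 and 94.6 CPM in WT. All NHD13 libraries were above all WT libraries, and the fold was 1.31 (log2 0.39, SE 0.09, edgeR adjusted p = 0.0109). Mrpl10, which anchors the stalk, had 57.2, 60.6 and 56.8 CPM in NHD13 and 53.9, 60.7 and 51.9 CPM in WT. Those groups overlapped, with a log2 change of 0.07 (adjusted p = 0.539). Mrpl11, at the base of the stalk, had 33.2, 41.7 and 39.9 CPM in NHD13 and 32.3, 35.7 and 35.1 CPM in WT, also with overlap (log2 0.16, adjusted p = 0.266). Whether the 3 genes differ in their change was not tested.

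Among other large subunit proteins of bacterial families, Mrpl20, which contacts the ribosomal RNA and is needed early in assembly in bacteria, had 60.2, 65.2 and 66.2 CPM in NHD13 and 50.8, 48.4 and 51.6 CPM in WT. Its NHD13 libraries were close together and all above WT (log2 0.35, SE 0.07, adjusted p = 0.00861). Mrpl30 had 61.0, 76.4 and 76.9 CPM in NHD13 and 56.0, 53.6 and 57.8 CPM in WT, without overlap (log2 0.36, SE 0.10, adjusted p = 0.0262). Mrpl18, of the family that binds the small ribosomal RNA of the large subunit in bacteria, had 114, 123 and 117 CPM in NHD13 and 103, 103 and 106 CPM in WT. Its groups did not overlap either, but at a log2 change of 0.18 the adjusted p was 0.0572. Mrpl42, which is mitochondria-specific, had 60.5, 65.2 and 71.4 CPM in NHD13 and 57.6, 58.8 and 55.5 CPM in WT, again with separate groups and an adjusted p of 0.088 (log2 0.20).

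Mrpl33 was the only member that fell. It codes for a short protein of a bacterial family (chromosome 5, bases 31596935 to 31664384, plus strand), and it was the most abundant member per length, at 147 CPM per kb of transcript averaged over all libraries, ahead of Mrpl42 (92.7 CPM per kb), Mrpl18 (91.1), Mrpl52 (89.8), Mrpl12 (85.2) and Mrpl30 (78.0). The order below Mrpl33 differed between the groups: Mrpl52 stood at 114 CPM per kb in NHD13, the next after Mrpl33, and at 65.4 CPM per kb in WT, below Mrps21 (73.6), Mrps15 (66.8) and others. Mrpl33 had 69.6, 58.7 and 60.6 CPM in NHD13 and 76.8, 75.5 and 81.5 CPM in WT. All NHD13 libraries were below all WT libraries, and NHD13 replicate 1 was again the closest to WT. The means were 63.0 ± 5.82 CPM in NHD13 and 77.9 ± 3.15 CPM in WT (SD, n = 3 each), a fall by 0.31 on the log2 scale (SE 0.08, edgeR adjusted p = 0.0235). The direction held in all 15 alternative settings. The adjusted p lay between 0.0501 and 0.0972 when NHD13 replicate 2 or 3 or any WT library was left out. Exons of Mrpl33 share 261 bases in all with overlapping genes, namely Rbks on the other strand and a predicted gene on the same strand. The sum was not split by gene, and reads from the shared bases cannot be told apart.

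No other member with a negative change passed the test. Mrps33, a mitochondria-specific small subunit protein, had 49.1, 47.1 and 48.3 CPM in NHD13 and 54.4, 50.1 and 53.5 CPM in WT. The groups were separate but close together (log2 -0.13, SE 0.07, adjusted p = 0.185). Mrpl48 had 35.9, 43.2 and 39.0 CPM in NHD13 and 44.9, 46.2 and 42.6 CPM in WT, with overlap (log2 -0.18, adjusted p = 0.153). Mrpl44, which carries a fold related to ribonuclease III, had 54.0, 49.4 and 50.3 CPM in NHD13 and 58.3, 53.4 and 52.0 CPM in WT, with overlap (log2 -0.09, adjusted p = 0.393). The transcripts of Mrps33 and Mrpl48 each have a near-identical copy elsewhere in the genome, which makes their counts uncertain.

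Small subunit proteins that rose included Mrps24, whose family lines the entry of the messenger RNA channel. Mrps24 had 31.2, 40.5 and 40.8 CPM in NHD13 and 25.1, 25.8 and 30.04 CPM in WT (log2 0.48, SE 0.12, edgeR adjusted p = 0.0218). NHD13 replicate 1 lay just above WT replicate 3, and the exons share 226 bases with Urgcp on the same strand. Mrps22, a mitochondria-specific protein whose loss of function causes mitochondrial disease in humans (chromosome 9, bases 98588730 to 98601660, minus strand), had 34.5, 46.4 and 44.1 CPM in NHD13 and 31.3, 29.2 and 30.9 CPM in WT. Its groups did not overlap (log2 0.45, SE 0.11, adjusted p = 0.0194). Mrps28 had 29.0, 36.6 and 33.0 CPM in NHD13 and 24.7, 23.9 and 23.8 CPM in WT, with the WT libraries within 1 CPM of each other (log2 0.44, SE 0.10, adjusted p = 0.0124). Mrps36, the gene with a small subunit symbol whose product is now assigned elsewhere, had 32.4, 40.1 and 36.8 CPM in NHD13 and 26.8, 27.5 and 25.4 CPM in WT. It rose with the rest (log2 0.46, SE 0.10, adjusted p = 0.0099), and 4 near-identical copies make its counts uncertain. Mrps12, which lies in the decoding centre in bacterial ribosomes, did not pass the test: it had 25.4, 27.3 and 23.6 CPM in NHD13 and 24.0, 20.5 and 22.4 CPM in WT, with overlap (log2 0.19, adjusted p = 0.179).

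The 3 mouse relatives of bacterial protein S18 took different courses in these libraries. Mrps18b had 53.4, 54.5 and 60.1 CPM in NHD13 and 43.6, 40.7 and 43.6 CPM in WT. It showed the lowest p of all members (log2 0.39, SE 0.08, edgeR adjusted p = 0.00718), and NHD13 replicate 1 lay close to NHD13 replicate 2. Mrps18a, whose product belongs to the large subunit, had 28.1, 28.8 and 34.5 CPM in NHD13 and 30.8, 25.9 and 26.1 CPM in WT, with overlap (log2 0.14, SE 0.11, adjusted p = 0.352). Mrps18c had 39.1, 42.6 and 37.2 CPM in NHD13 and 37.6, 35.1 and 42.0 CPM in WT, with full overlap (log2 0.05, SE 0.09, adjusted p = 0.709). The difference in change between the 3 genes was not tested. Mrps18b shares 638 exon bases with the predicted gene Gm16279 on the other strand and has a near-identical copy. Mrps30, the other large subunit protein with a small subunit symbol, had 39.98, 45.2 and 46.6 CPM in NHD13 and 36.5, 36.6 and 40.4 CPM in WT, where NHD13 replicate 1 fell below WT replicate 3 (log2 0.22, adjusted p = 0.0914).

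**Figure D4:**
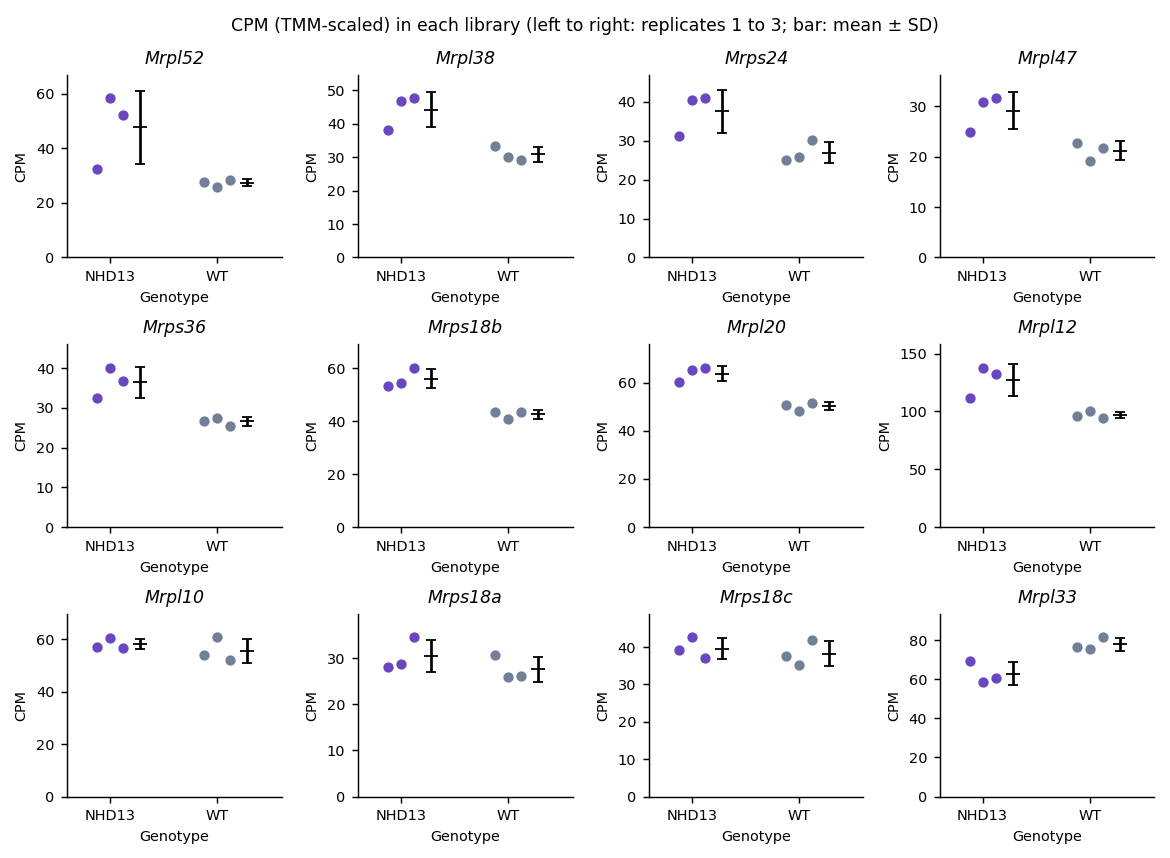
CPM of 12 genes in each NHD13 library (purple, left) and each WT library (grey, right), with the mean ± SD of 3 libraries as a black bar; every vertical axis starts at 0. In the first 8 panels the NHD13 points lie above all WT points, in Mrpl10, Mrps18a and Mrps18c the groups overlap, and in Mrpl33 the NHD13 points lie below all WT points.

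In the plot of single genes, the gap between NHD13 replicate 1 and the other NHD13 libraries is wide for Mrpl52 and narrow for Mrps18b and Mrpl20. Near-identical copies and shared exons touched a part of the set. Of the 18 members with a copy of at least 95% identity over 200 bases, 4 rose (median log2 0.18), and of the 58 without one, 23 rose and 1 fell (median 0.22). Of the 32 members that share exon bases with another gene, 13 rose and 1 fell, and of the 44 that share none, 14 rose. Besides those already named, Mrpl42 has a near-identical copy, and Mrpl10, Mrpl12, Mrpl18, Mrpl44, Mrps18c and Mrps30 share exon bases, so that their counts are uncertain.

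Many mitochondrial ribosomal protein genes start next to another gene. A protein-coding gene on the other strand, pointing away, started within 1000 bases of 26 of the 76 members (34.2%), against 14.0% of 10858 tested protein-coding genes. Members with such a neighbour rose in 11 of 26 cases (median log2 0.20), and members without one in 16 of 50 (median 0.20). Of the 23 neighbours that are not members and were tested, 6 rose and none fell, against 15.0% and 15.3% of all genes tested. Of the 23, 22 had a positive change, and the median was 0.19. The neighbour pairs of named members included Mitd1, 66 bases from Mrpl30 (log2 0.46, adjusted p = 0.0104), and Tcp1, a subunit of the cytosolic chaperonin, 37 bases from Mrpl18 (log2 0.32, adjusted p = 0.0105), with which it shares exon bases. In several pairs, as for Mrpl18 and Tcp1, the calls of the member and its neighbour differed. Helq, 29 bases from Mrps18c, rose (log2 0.48, edgeR adjusted p = 0.0397) where Mrps18c did not. Ppp1r10, 807 bases from Mrps18b (log2 0.13, adjusted p = 0.172), and Ndufb5, 157 bases from Mrpl47 (log2 0.18, adjusted p = 0.106), were not called.

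In 1 case both genes of such a pair were members, from different subunits. Mrpl46 (chromosome 7, bases 78775236 to 78783531, minus strand) and Mrps11 (chromosome 7, bases 78783119 to 78792989, plus strand) start 30 bases apart. The stretch between their starts is shown because it is the space between the main starts of the pair, from RefSeq on GRCm38.p6, 5′ to 3′ on the strand of Mrpl46, in lower case since none of the motifs above lies wholly within it.
Mrpl46 and Mrps11, chr7:78783090-78783118, minus strand: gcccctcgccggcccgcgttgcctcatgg
Mrpl46, a mitochondria-specific protein of the large subunit, had 28.1, 31.6 and 31.8 CPM in NHD13 and 24.6, 24.0 and 26.2 CPM in WT. Mrps11, of a bacterial family on the platform of the small subunit, had 24.98, 30.9 and 30.1 CPM in NHD13 and 22.8, 20.6 and 20.3 CPM in WT. Both genes were higher in every NHD13 library than in any WT library, with log2 changes of 0.29 for Mrpl46 (SE 0.09, adjusted p = 0.0379) and 0.43 for Mrps11 (SE 0.11, adjusted p = 0.0187). Longer annotated transcripts of the pair share 173 exon bases, so part of their reads cannot be told apart.

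Other genes of mitochondrial translation were set beside the members, and their counts are to be read against the 15.0% of all genes tested that were called higher. Of the 7 mitochondrial ribosomal proteins with other symbols, 3 rose (42.9%) and none fell (median log2 0.22). Dap3, a GTP-binding protein of the small subunit, had 108, 141 and 133 CPM in NHD13 and 95.3, 90.8 and 97.6 CPM in WT (log2 0.43, adjusted p = 0.0138). Gadd45gip1, a large subunit protein, rose by 0.51 on the log2 scale (adjusted p = 0.0120). Of 24 genes for assembly of the particle and modification of its ribosomal RNA, 6 rose and none fell (median 0.22). The called members of that list included the GTPase Noa1 (log2 0.50, adjusted p = 0.0060) and Rnmtl1, a methyltransferase of the large ribosomal RNA (log2 0.61, adjusted p = 0.0078).

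Of 15 genes for translation factors and other proteins that aid mitochondrial translation, 7 rose (46.7%) and none fell (median 0.27). Tufm, the elongation factor that brings transfer RNA to the ribosome, averaged 125 ± 8.77 CPM in NHD13 and 93.7 ± 6.16 CPM in WT (SD, n = 3 each), a log2 change of 0.41 (adjusted p = 0.0067). Tsfm, which recharges Tufm with GTP, changed by 0.36 (adjusted p = 0.00998). Of 17 mitochondrial aminoacyl-tRNA synthetases, 7 rose (41.2%) and none fell (median 0.28), led by Mars2 (log2 0.73, adjusted p = 0.0014) and Nars2 (log2 0.58, adjusted p = 0.0140), which charge methionine and asparagine. Lars2, the leucine enzyme, had 6112, 311 and 473 CPM in NHD13 and 323, 363 and 237 CPM in WT (adjusted p = 0.194). NHD13 replicate 1, the library with the high Rn45s share, alone was high, and the part of that share in the Lars2 value was not tested.

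Of 9 genes of mitochondrial DNA transcription and maintenance, Polrmt, the mitochondrial RNA polymerase (log2 0.46, adjusted p = 0.0101), and the helicase gene Peo1 (log2 0.34, adjusted p = 0.0278) rose (22.2%), and the median was 0.07. Among 9 tested nuclear regulators of mitochondrial genes, only Pprc1, a coactivator of the PGC-1 family, passed the test (log2 0.52, adjusted p = 0.0058). Gabpb2, a GABP subunit, changed by 0.23 (adjusted p = 0.0517). The other GABP genes listed, Gabpa and Gabpb1, changed by 0.05 (edgeR adjusted p = 0.630) and -0.06 (edgeR adjusted p = 0.538). Of 77 nuclear genes of oxidative phosphorylation, 11 were called higher (14.3%, close to the share over all genes tested) and none lower (median 0.11). The lowest p values in that list were those of Atp5g1, a subunit of ATP synthase (log2 0.43, adjusted p = 0.0090), and Cyc1, cytochrome c1 (log2 0.37, adjusted p = 0.0103). Of 84 genes with cytosolic ribosomal protein symbols, 5 were called higher (5.95%) and 1 lower (median 0.04). The lowest p values there were those of Rps4y2, the gene that fell (log2 -4.15, adjusted p = 6.29e-05), and Rps19bp1, which codes for a protein that binds a ribosomal protein (log2 0.47, adjusted p = 0.0078). The lists were not tested against each other.

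**Figure D5:**
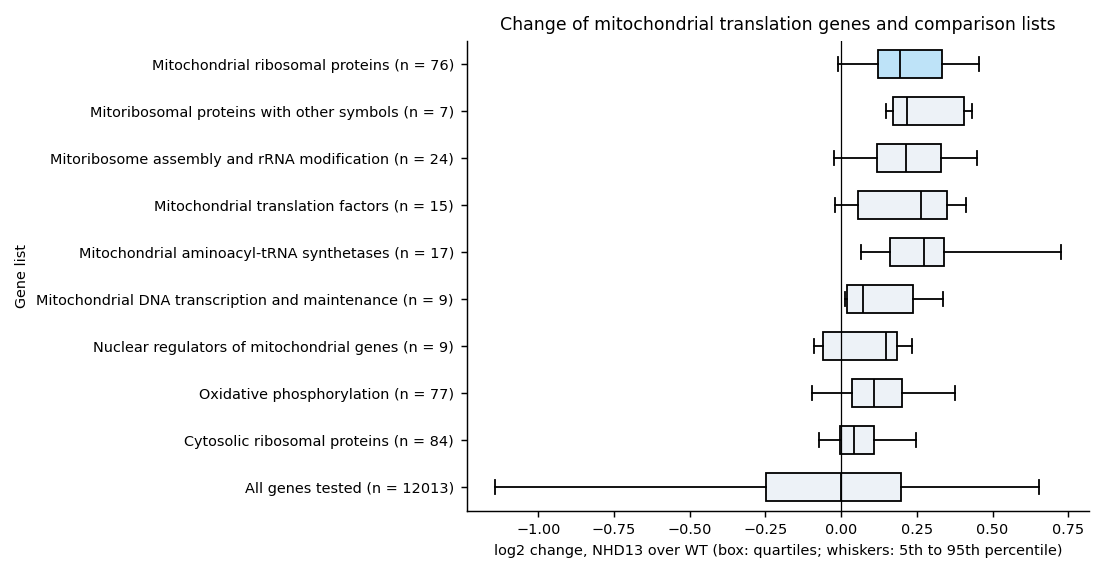
Log2 change, NHD13 over WT, of the genes in each list, with the box at the quartiles, the line at the median and whiskers from the 5th to the 95th percentile; n is the number of genes tested. The medians of the mitochondrial ribosomal proteins (0.20), the assembly genes (0.22), the translation factors and related proteins (0.27) and the aminoacyl-tRNA synthetases (0.28) lie to the right of those for oxidative phosphorylation (0.11), cytosolic ribosomal proteins (0.04) and all genes tested (0.00).

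The plot of lists shows that the lower quartile of the mitochondrial ribosomal proteins (0.12) lies above the upper quartile of the cytosolic ribosomal proteins (0.11). The calls on the members were lost when the share of Y-linked counts was added as a covariate. Y-linked genes gave 252, 280 and 176 CPM in NHD13 and 192, 109.9 and 113 CPM in WT. Xist gave 2.55, 1.95 and 683 CPM in NHD13 and 463, 1020 and 1078 CPM in WT, so that sex was not balanced between the groups. Every WT library and NHD13 replicate 3 held both Xist and Y-linked counts, while Xist was low in NHD13 replicates 1 and 2. In the fit with the covariate the median log2 change of the members was 0.20 and 0 of 76 passed an adjusted p of 0.05 in edgeR's test. At an unadjusted p under 0.05, 14 were higher and 0 lower, and 0.924% of all genes were called higher and 1.46% lower after adjustment. The median standard error of the members was 0.145 in this fit and 0.085 without the covariate.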

How the data were processed

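RNA was measured by sequencing 3 NHD13 and 3 WT libraries. The deposited values are raw counts per gene and library, which the authors did not normalise. Bowtie2 2.2.1, HTSeq 0.5.4p3 and the build mm10 were used, per the submitters' processing notes. The sources used here do not name the gene annotation, strand setting or read filters. NHD13 columns were matched to samples by the initial N and the replicate number, and 0 columns were left unused.

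The filter filterByExpr (minimum count 10) left 12013 genes for testing, and 5510 were not tested. Libraries were scaled by TMM and fitted with edgeR 4.0.16 (R 4.3.3; estimateDisp, robust glmQLFit, glmQLFTest) with the group as the term, on the whole table. P-values are two-sided and adjusted by the Benjamini-Hochberg method over all genes tested, with a threshold of 0.05. The procedure was tested on simulated data, where a pass required recovery of 2-fold changes, larger than any change of the members. CPM are TMM-scaled and given for replicates 1, 2 and 3 in order; SE is the log2 change over the root of its F statistic. At these depths 1 count is worth 0.0691 to 0.0791 CPM, and precision covers counting error only within a library.

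Positions, lengths (median over protein-coding transcripts paired with RefSeq) and overlaps come from GENCODE vM21 (GRCm38), matched by symbol for all 76 members. Near-identical copies were sought with BLAST among the annotated GENCODE vM21 transcripts, so copies without an annotated transcript were not seen. Promoters come from RefSeq on GRCm38.p6, and for NRF1 and YY1 only short cores of their motifs were searched.

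The members and lists were chosen with earlier results of these data known. Genes named are the 8 largest called changes in each direction, the 4 lowest p in each direction, the 6 most abundant per kb, the S18 relatives, the stalk genes, Mrps30, Mrps36 and Mrps12, and the 2 lowest p of each list. Mrpl46, Mrpl45, Mrpl21, Mrps6, Mrps15, Mrps21, Lars2, Gabpa, Gabpb1 and the genes neighbouring members were added after their values were seen. Alternatives were DESeq2 1.42.0 (size factors and Wald test), upper-quartile factors, library totals, no filter, limma-voom (limma 3.58.1), a replicate block, a Y-linked covariate and leaving out libraries.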

Additional observations from a re-analysis of the deposited data

How the results depend on the processing

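Of 27 members higher and 1 lower in NHD13, DESeq2 size factors gave 27 and 1, upper-quartile factors 21 and 1, library totals 24 and 1, no filter 27 and 1, DESeq2's Wald test 24 and 1, and limma-voom 27 and 1, where 10.3% to 14.7% of all genes were called higher. The Y-linked covariate gave 0 and 0 in edgeR. Leaving out a library gave 4 to 44 members higher and 0 to 1 lower, where 6.23% to 24.5% of all genes were called higher. Leaving out replicate 1 of both groups gave 47 and 1, where 26.6% of all genes were called higher. Those fits use fewer libraries. Replicate numbers are shared between the groups only as numbers: same-numbered libraries had correlations of 0.249, 0.0632 and 0.175 in their deviations. The replicate block gave 26 members higher and 1 lower, where 16.7% of all genes were called higher. Over all 15 settings the median log2 change of the members lay between 0.15 (upper-quartile factors, which moved the median of all genes to -0.04) and 0.27, and all 27 called members stayed positive. Mrpl20, Mrpl38 and Mrps18b passed the threshold in 14 settings, and Mrpl21 in the fewest, 4. The log2 difference between the subunits, -0.0046 by sums, was -0.023 to 0.0052 without each library in turn. It was -0.0517 when each library's median log2 CPM over members replaced its sum (a difference of level medians, not of the median log2 changes given above). In size, this value by medians exceeded the pooled SD of 0.023 between replicates, which was computed from the sums. Members with a positive change numbered 67 to 70 over the settings. Among the members named by the rule, the values that changed sign were those of Mrps18c (0.05 with all libraries, -0.0328 with the Y-linked covariate, -0.0176 to 0.123 without each library in turn) and Mrps12 (-0.0012 with the covariate). The cause was not tested. At counts from 107 per member and library, counting error limits the precision of the lowest members most.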
